A study of Mus musculus with 12 samples.

Results

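Chromatin accessibility was described at the 44 mouse forkhead (Fox) genes, taken as every protein-coding gene whose symbol is Fox, a letter from A to S and a number. The members fell into 19 subfamilies by that letter. They had 399 accessible loci in their gene bodies or within 20 kb on either side, of 105084 loci around all 21938 protein-coding genes and 147985 in the whole series. Forkhead factors share a winged-helix domain that binds DNA, and the core that many of them recognise reads TGTTTAC. Some, such as the Foxa factors, can bind their sites in compacted chromatin. The Foxo factors carry the output of insulin and PI3K signalling, and others direct the formation of mesenchyme, cilia, lens or thymus.

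The data were ATAC-seq peak lists, in which a transposase marks accessible DNA, from mouse embryonic fibroblasts (MEFs) immortalized with transgenes. The labels named the cells OG2 MEFs, which carry an Oct4-GFP reporter, and the growth notes named E13.5 embryos of an ICR background. Hdac7SA.Mef2d cells carried Mef2d together with a mutant of the histone deacetylase Hdac7 whose export from the nucleus is blocked. Hras.E1A and Hras.Myc cells carried the oncogene Hras with the adenoviral protein E1A or with Myc. Both Hras lines were also treated for 2 days with PD0325901 (PD), an inhibitor of the kinase MEK, or with trichostatin A (TSA), an inhibitor of histone deacetylases. The treated cells kept the transgenes of their untreated line, every line was immortalized and passaged, and wildtype MEFs were not analysed here. The 12 libraries, each from about 50000 cells, gave 7 lists. The Hdac7SA.Mef2d, Hras.E1A, Hras.E1A +PD, Hras.Myc and Hras.Myc +PD lists came from 2 libraries each, and each TSA list came from 1.

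Overlapping peaks of the 7 lists were merged into loci, and a locus was called open in a list that had a peak there. A locus with a peak in the untreated list and none in the treated list was called closed with that treatment, and a locus with the reverse was called opened. Each group had 1 list and no read counts, so replicates could not be compared by a test, and the read depth was unknown. Intervals given after shares are 95% exact binomial (Clopper-Pearson) intervals and describe counting error alone. The lists held from 56774 peaks in Hras.Myc +PD to 119251 in Hdac7SA.Mef2d, each 400 bp wide. Of 10 fibroblast markers, 7 to 10 had an open promoter in each list, and Col1a2, Thy1 and Prrx1 lacked one in Hras.E1A. Of 5 pluripotency markers, 1 had an open promoter in every list. The other markers had 4 to 5 of 5 open for epithelium, 3 to 5 of 5 for neural cells, 1 to 3 of 5 for endothelium and 1 to 2 of 5 for blood. Open promoters therefore did not set fibroblasts apart from epithelial or neural cells.

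The sequences below are the central 200 bases of 7 loci outside promoters and exons, given on the + strand of mm10 from the RefSeq genome, with the matches to 5 searched motifs in capitals. They were chosen because their state changed with MEK inhibition in both Hras lines or marked a class of loci, so that the changed DNA itself can be read. The motifs were the forkhead core TGTTTAC, AP-1 TGANTCA (bound by Fos and Jun, which lie downstream of MEK), TEAD GGAATG, RUNX TGTGGTT and the MEF2 motif, searched on both strands. None of these words contains another. In each of 4 classes, the strongest distal locus that held a motif is shown, ranked by its lowest score percentile over the lists that define the class.
Foxp1 intron 2, closed with PD in both Hras lines, chr6:99341059-99341258, 1 AP-1 match: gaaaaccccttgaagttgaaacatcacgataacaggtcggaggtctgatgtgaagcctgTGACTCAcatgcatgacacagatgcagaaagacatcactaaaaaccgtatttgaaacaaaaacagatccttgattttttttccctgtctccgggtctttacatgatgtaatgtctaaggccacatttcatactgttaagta
Foxp2 intron 5, opened with PD in both Hras lines, chr6:15367029-15367228, 2 TEAD matches: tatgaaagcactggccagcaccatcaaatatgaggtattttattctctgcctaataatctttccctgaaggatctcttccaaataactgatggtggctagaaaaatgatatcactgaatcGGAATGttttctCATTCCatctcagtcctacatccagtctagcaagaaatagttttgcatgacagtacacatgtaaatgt
Foxj3 intron 4, open in Hdac7SA.Mef2d alone, chr4:119599758-119599957, 1 TEAD and 1 RUNX match: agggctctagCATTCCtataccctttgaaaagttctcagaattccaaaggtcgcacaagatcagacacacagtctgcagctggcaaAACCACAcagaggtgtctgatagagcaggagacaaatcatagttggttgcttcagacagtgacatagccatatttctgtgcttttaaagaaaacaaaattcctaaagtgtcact
Foxn1 intron 1, open in all 7 lists, chr11:78382765-78382964, 1 AP-1 match: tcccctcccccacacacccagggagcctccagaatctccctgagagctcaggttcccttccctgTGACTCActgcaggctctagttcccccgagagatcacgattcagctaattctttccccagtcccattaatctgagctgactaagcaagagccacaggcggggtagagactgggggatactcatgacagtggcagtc
A further 3 sequences were added after their values had been seen, from genes where changes gathered.
Foxk2 intron 4, closed with PD in both Hras lines, chr11:121294900-121295099, 2 AP-1 matches: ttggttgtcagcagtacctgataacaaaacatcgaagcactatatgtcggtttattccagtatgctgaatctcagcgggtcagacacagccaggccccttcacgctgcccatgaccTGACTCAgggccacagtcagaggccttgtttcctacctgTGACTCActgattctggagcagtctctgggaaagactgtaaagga
Foxn3, in an intron, opened with PD in both Hras lines, chr12:99490876-99491075, 1 TEAD match: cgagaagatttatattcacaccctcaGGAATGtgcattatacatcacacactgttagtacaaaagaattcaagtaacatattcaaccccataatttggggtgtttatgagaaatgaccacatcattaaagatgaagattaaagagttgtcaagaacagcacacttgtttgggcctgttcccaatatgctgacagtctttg
Foxo3 intron 2, closed with PD in Hras.E1A, chr10:42251323-42251522, 1 forkhead match: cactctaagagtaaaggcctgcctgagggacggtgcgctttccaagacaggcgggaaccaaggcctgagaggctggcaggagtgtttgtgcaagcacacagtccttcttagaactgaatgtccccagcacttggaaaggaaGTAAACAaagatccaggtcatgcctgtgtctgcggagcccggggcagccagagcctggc

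All 44 Fox genes had at least 1 locus, whereas 2669 of the 21938 protein-coding genes had none. The median Fox gene was short, at 5.72 kb against 17.4 kb for all protein-coding genes, yet its window held 7 loci against 6. Foxp1 (64 loci), Foxn3 (41), Foxo3 (21) and Foxp2 (21) had the most loci, followed by Foxk1 (16), Foxj3 (15), Foxo1 (14) and Foxp4 (14). Foxp1, Foxp2 and Foxn3 are very long genes of 597, 541 and 374 kb, and together they held 126 of the 399 loci (31.6%). At the other end, 18 members had 5 loci or fewer, and Foxi1 had 1. For 322 of the 399 loci the nearest protein-coding start site was that of a Fox gene. It was that of another gene for every locus at Foxa3, Foxh1, Foxp3, Foxq1 and Foxr2. In all, 12 loci lay in the windows of more than 1 Fox gene, of which 7 were shared by Foxc2 and Foxl1, 3 by Foxd2 and Foxe3 and 2 by Foxc2 and Foxf1. These were counted once in totals.

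The Fox loci were most often open in Hdac7SA.Mef2d and least often in Hras.Myc +PD. Of the 399 loci, 308 were open in Hdac7SA.Mef2d, 246 in Hras.E1A, 217 in Hras.E1A +PD, 247 in Hras.E1A +TSA, 208 in Hras.Myc, 191 in Hras.Myc +PD and 221 in Hras.Myc +TSA. In both PD lists a larger share of Fox loci than of loci at all genes was open. It was 54.4% (interval 49.4 to 59.4) against 44.9% in Hras.E1A +PD, and 47.9% (42.9 to 52.9) against 42.3% in Hras.Myc +PD. In the other 5 lists the share for all genes fell inside the interval of the Fox loci. A total of 116 Fox loci (29.1%, interval 24.7 to 33.8) were open in all 7 lists, against 24.7% of loci at all genes, and 67 were open in a single list. Peaks at Fox loci ranked low within their lists, with median score percentiles of 35.2 to 42.6 against 47.6 to 49.6 for loci at all genes.

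**Figure D1:**
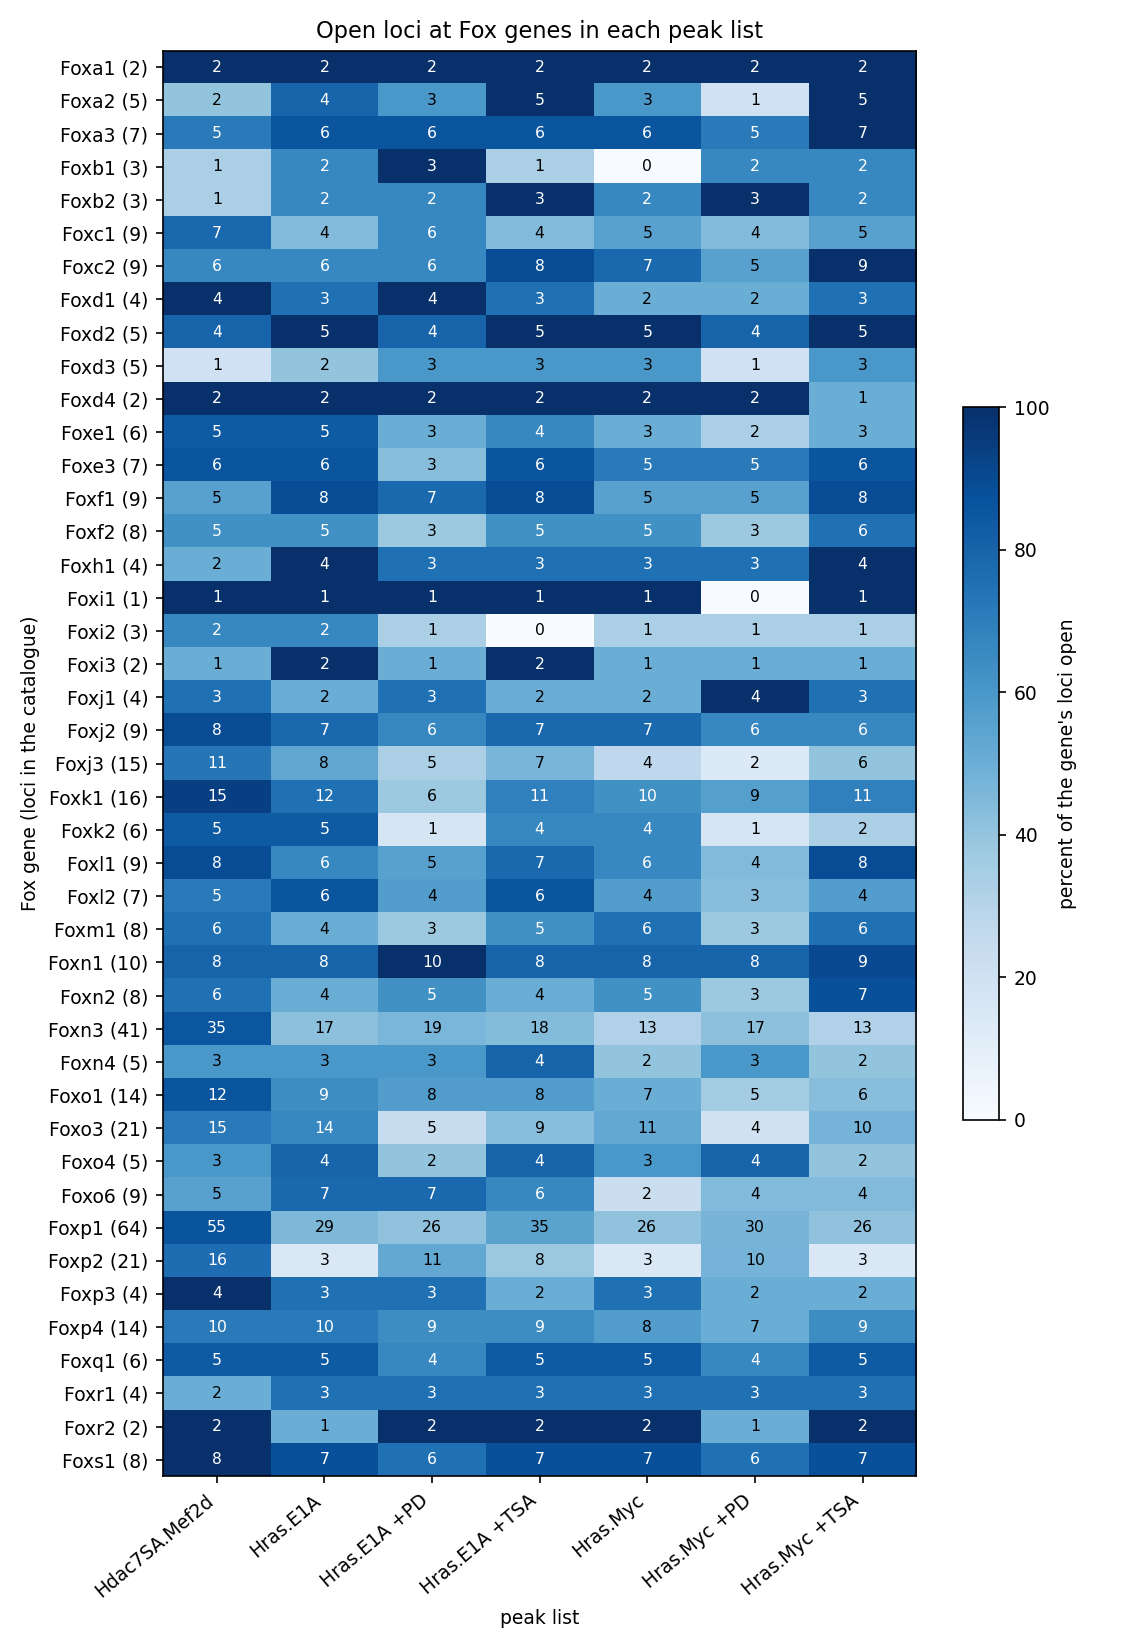
Heat map of the number of open loci at Fox genes (rows) in each of the 7 peak lists (columns), coloured by the percent of the gene's loci that were open. Foxo3 went from 14 open loci in Hras.E1A to 5 with PD and Foxp2 from 3 to 11, while both loci of Foxa1 were open in every list.

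Most Fox genes had a promoter that was open in every line and treatment. A promoter locus, within 1000 bp of an annotated start site of the gene, was found at 35 members, and 31 of these had at least 1 that was open in all 7 lists (88.6%, interval 73.3 to 96.8), with 82.9% of the 15183 protein-coding genes that had a promoter locus inside the interval. They included genes known for other tissues, among them Foxa1 (endoderm), Foxj1 (motile cilia), Foxe3 (lens) and Foxl2 (ovary), as well as the widely expressed Foxo1, Foxo3, Foxk1 and Foxk2. An open promoter is not a measure of transcription, and no expression values were used. The 9 members without a promoter locus were Foxd3, Foxh1, Foxi1, Foxl1, Foxn1, Foxp3, Foxq1, Foxr1 and Foxr2, which include the factor of regulatory T cells (Foxp3) and that of thymic epithelium (Foxn1).

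Of the 51 promoter loci, 17 at 12 members differed between lists (33.3%, interval 20.8 to 47.9), and 26.7% of the promoter loci of all protein-coding genes did. The single promoter locus of Foxa2, a pioneer factor of endoderm, was open in every list except Hras.E1A +PD and Hras.Myc +PD, with score percentiles of 1.39 to 7.995 where it was open. A promoter locus of Foxo4 was likewise closed with PD in both lines, being open only in Hras.E1A, Hras.E1A +TSA and Hras.Myc, while its other promoter locus was open throughout. Score percentiles of the Foxo4 locus that closed were 2.33 to 8.65 where it was open. The promoter locus of Foxn4, which acts in retinal progenitors, showed the reverse and was open in Hras.E1A +PD, Hras.E1A +TSA and Hras.Myc +PD. Its score percentiles in these lists were 24.2, 1.21 and 3.17. Foxi2 had its promoter locus open only in Hdac7SA.Mef2d and Hras.E1A.

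Some of the other promoter loci differed by line and not by treatment. The second promoter loci of Foxe1, a thyroid factor, and of Foxp2 were open in Hdac7SA.Mef2d and in the 3 Hras.E1A lists and in no Hras.Myc list. Where open, their score percentiles were 2.53 to 18.6 at Foxe1 and 1.30 to 30.3 at Foxp2. The 2 promoter loci of Foxb1 were closed in Hdac7SA.Mef2d and untreated Hras.Myc, and both were open in Hras.E1A +PD and Hras.Myc +TSA. A promoter locus of Foxb2 was closed only in Hdac7SA.Mef2d and Hras.E1A. Foxp1 had 5 promoter loci, of which 4 differed: 3 of these lay open in Hdac7SA.Mef2d and in at most 2 Hras lists, and the other was closed only in Hras.Myc +TSA. A second promoter locus also differed at Foxc2 (open in Hras.E1A +TSA, Hras.Myc and Hras.Myc +TSA), Foxm1 (Hdac7SA.Mef2d and Hras.E1A +TSA) and Foxn2 (Hdac7SA.Mef2d, Hras.E1A +PD and Hras.Myc +TSA), and a further Foxp2 locus was open in Hdac7SA.Mef2d and Hras.E1A +TSA. The peaks at the Foxc2 and Foxn2 loci ranked near the bottom of their lists, at percentiles of 0.0605 to 3.94 and 1.10 to 2.59.

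The 3 untreated lines were compared to ask where Fox loci were open in Hdac7SA.Mef2d and in neither Hras line. Of the 308 Fox loci open in Hdac7SA.Mef2d, 105 at 28 members (34.1%, interval 28.8 to 39.7) were open in neither untreated Hras line, close to the background of 36.3% over loci at all genes. These loci gathered in the long genes, with 26 at Foxp1, 19 at Foxn3 and 13 at Foxp2, followed by 6 at Foxj3 and 5 at Foxo1. Foxp1, Foxp2 and Foxn3 held 58 of the 105, and without them the share was 23.3% (47 of 202 loci, interval 17.6 to 29.7). These genes were picked after the values were seen, so the lower share followed from the choice. The background kept its own long genes. Loci open in Hdac7SA.Mef2d alone of the 7 lists numbered 57 (18.5%, interval 14.3 to 23.3), below the background of 24.5%, and 16 of them lay at Foxp1 and 11 at Foxn3. The Hdac7SA.Mef2d list was also the longest, and the part of list length in this result was not tested beyond the alternatives.

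Fewer loci were open in a single Hras line. In Hras.E1A, 25 of 246 Fox loci (10.2%, interval 6.69 to 14.6) were open in neither Hdac7SA.Mef2d nor Hras.Myc, against a background of 6.45%. They were spread thinly, with 3 at Foxp1 and at most 2 at any other gene, and by subfamily 5 lay at Foxo and 5 at Foxp genes. In Hras.Myc, 10 of 208 (4.81%, interval 2.33 to 8.66) were open in neither other line, against 6.14%.

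MEK inhibition changed the state of 173 of the 399 Fox loci (43.4%, interval 38.4 to 48.4) in at least 1 Hras line, against a background of 41.3%. Only Foxa1 and Foxd4 had no such locus. In Hras.E1A, 79 of 246 open loci were closed with PD (32.1%, interval 26.3 to 38.3, background 35.5%), and 50 of the 217 loci open with PD had been opened (23.0%, interval 17.6 to 29.2, background 14.3%). In Hras.Myc, 65 of 208 were closed (31.3%, interval 25.0 to 38.0, background 35.7%) and 48 of 191 opened (25.1%, interval 19.1 to 31.9, background 21.7%). The share opened in Hras.E1A thus lay above the background, and the other 3 shares had the background inside their intervals. That share rested partly on 3 genes, because 24 of the 50 opened loci lay at Foxp1, Foxp2 and Foxn3. Without these genes, picked after the values were seen, it was 16.1% (26 of 161 loci, interval 10.8 to 22.8). Changed loci had lower median score percentiles than kept ones, at 22.9 against 39.7 for those closed with PD in Hras.E1A, and the same held at all genes, at 39.8 against 51.8.

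The balance of closed against opened loci depended on list length. The untreated Hras.E1A list held 81201 peaks and its PD list 59823, and the Hras.Myc lists held 67738 and 56774. When every list was brought to the length of the shortest by score, PD closed 37 and opened 87 Fox loci of Hras.E1A, and closed 43 and opened 68 of Hras.Myc. The excess over the background for opened loci in Hras.E1A was still present at 44.2% against 34.6%.

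**Figure D2:**
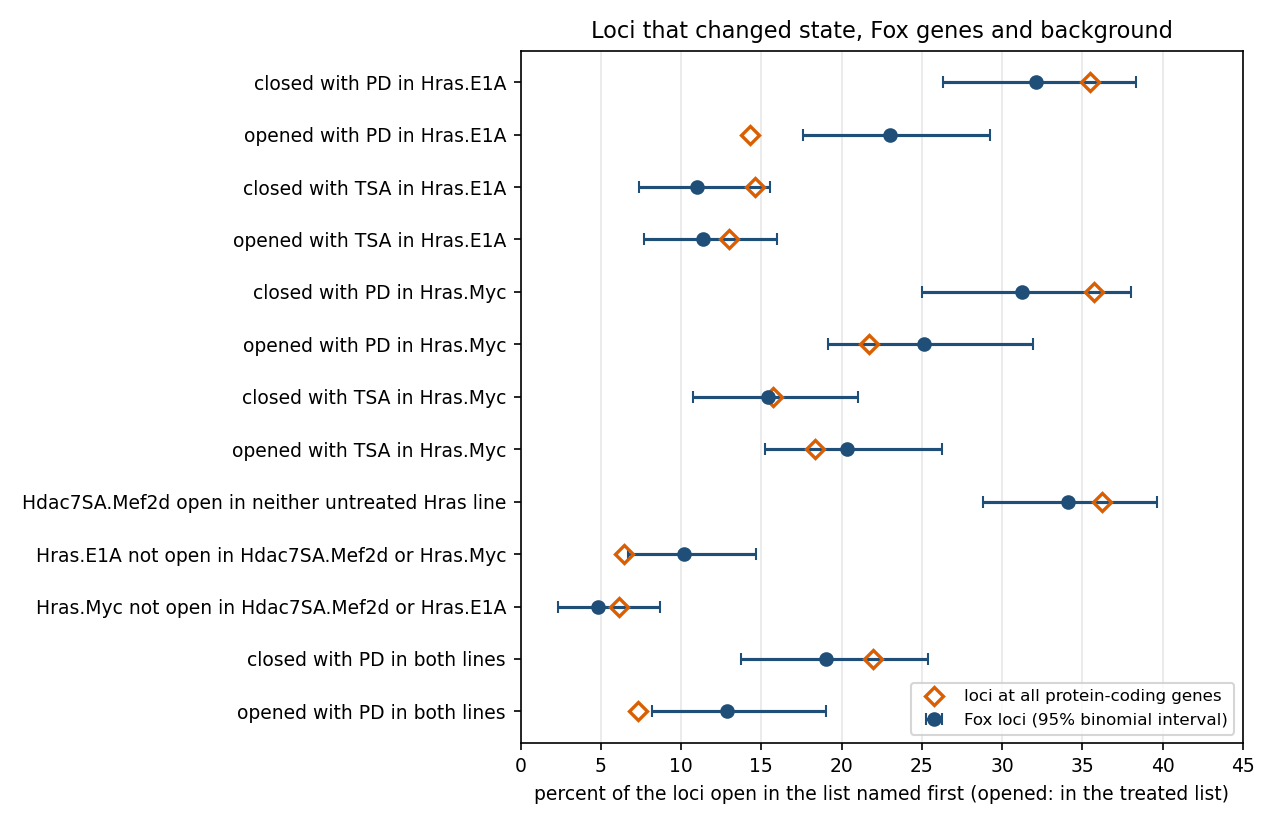
Percent of Fox loci in each class of change (blue, with 95% exact binomial intervals) beside the percent over loci at all protein-coding genes (orange diamonds). The diamond lies below the interval for loci opened with PD in Hras.E1A (23.0% against 14.3%), for those opened with PD in both lines (12.9% against 7.29%) and for loci open in Hras.E1A alone of the untreated lines (10.2% against 6.45%).

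In both Hras lines, 36 Fox loci were closed with PD, which was 19.05% of the 189 open in both untreated lists (interval 13.7 to 25.4, background 22.0%). They lay at 21 members, and 13 of them at Foxo and Foxk genes, which held 49 and 22 of the 399 Fox loci. Loci opened in both lines numbered 21, or 12.9% of the 163 open in both PD lists (interval 8.16 to 19.02, background 7.29%). Of these, 18 lay at Foxp and Foxn genes, which held 103 and 64 of the 399 Fox loci. Of the 21 opened loci, 10 were also open in Hdac7SA.Mef2d, and of the 36 closed loci 19 were. No share over all genes was computed for these classes. For loci opened or closed with PD in each line taken alone, the Fox shares open in Hdac7SA.Mef2d were 52.1% to 56.96%. Over all genes the shares were 57.9% to 65.9%, each inside the interval of the matching Fox share. By gene, 16 members had more loci closed than opened in each line, and 4 (Foxb1, Foxj1, Foxn3 and Foxp2) had more opened than closed in each. This tally depended on list length, because with lists of equal length, an alternative chosen after seeing the data, 3 members (Foxf2, Foxk2 and Foxo3) had more closed in each line and 15 more opened. Over loci at all genes PD also closed more than it opened, at 22235 against 6754 in Hras.E1A and 19333 against 9671 in Hras.Myc. The tally by gene was not made for all protein-coding genes.

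**Figure D3:**
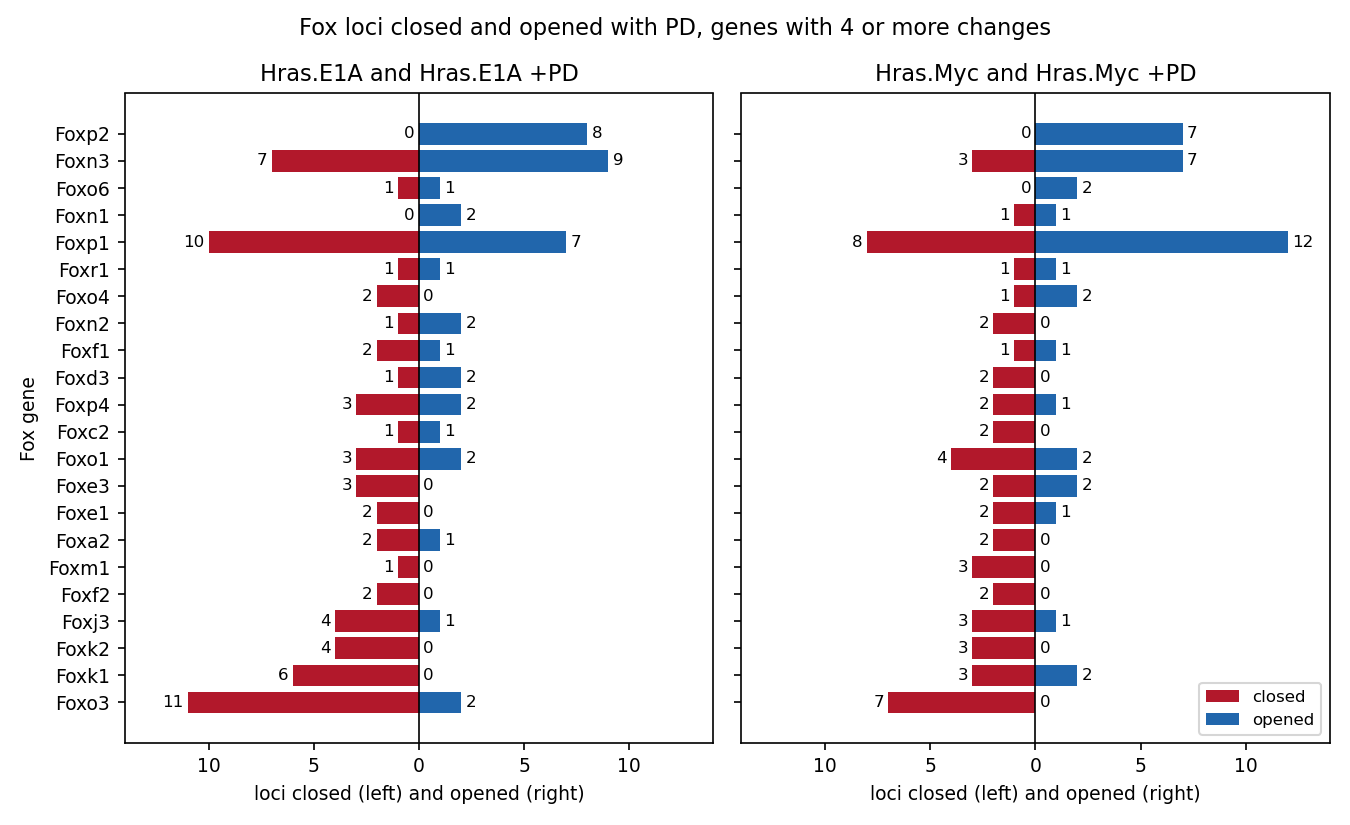
Number of loci closed (left, red) and opened (right, blue) with PD at the Fox genes with 4 or more changes over both lines, in Hras.E1A (left panel) and Hras.Myc (right panel). Foxp2 had 8 and 7 opened loci and none closed, and Foxo3 had 11 and 7 closed loci against 2 and 0 opened.

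The Foxo genes encode factors that AKT phosphorylates and keeps out of the nucleus, and that otherwise act on cell cycle arrest, survival and metabolism. Their 49 loci went from 34 open in Hras.E1A to 22 with PD and from 23 open in Hras.Myc to 17. Foxo3 (chr10:42181841-42276755, minus strand) carried most of this drop. With lists of equal length, Foxo3 alone of the Foxo genes had more loci closed than opened in each line. Of its 21 loci, 15 were open in Hdac7SA.Mef2d, 14 in Hras.E1A, 5 in Hras.E1A +PD, 9 in Hras.E1A +TSA, 11 in Hras.Myc, 4 in Hras.Myc +PD and 10 in Hras.Myc +TSA. Both PD lists were therefore the lowest, and the 2 promoter loci were open in all 7. At 6 Foxo3 loci, 5 in introns and 1 upstream, the peak was lost with PD in both lines. With lists of equal length, PD closed 6 and opened 2 Foxo3 loci of Hras.E1A, and closed 5 and opened 1 of Hras.Myc. Of the 6 loci lost in both lines, 5 held an AP-1 match, 4 were open in Hdac7SA.Mef2d and 5 were still open with TSA in each line.

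Foxo1 (chr3:52268336-52353221, plus strand), a regulator of hepatic glucose production, differed less. Of its 14 loci, 12 were open in Hdac7SA.Mef2d, 9 in Hras.E1A, 8 in Hras.E1A +PD, 8 in Hras.E1A +TSA, 7 in Hras.Myc, 5 in Hras.Myc +PD and 6 in Hras.Myc +TSA. With PD it had 3 loci closed and 2 opened in Hras.E1A, and 4 closed and 2 opened in Hras.Myc, but the excess of closed loci turned in 2 of 9 alternatives in each line. The smaller Foxo4, on the X chromosome, had 2 closed and none opened in Hras.E1A, and 1 closed and 2 opened in Hras.Myc. Foxo6 had 1 closed and 1 opened in Hras.E1A, and none closed and 2 opened in Hras.Myc, and neither gene had losses as numerous as those at Foxo3. With lists of equal length, PD closed none and opened 3 Foxo1 loci of Hras.E1A, and closed 1 and opened 2 of Hras.Myc. Foxo6 then had none closed in either line, with 5 opened in Hras.E1A and 2 in Hras.Myc. Foxo4 then had no change in Hras.E1A and 2 opened in Hras.Myc.

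The Foxk factors bind forkhead sites in most tissues and repress genes of autophagy. At Foxk1 (chr5:142401497-142462011, plus strand), 15 of 16 loci were open in Hdac7SA.Mef2d, 12 in Hras.E1A, 6 in Hras.E1A +PD, 11 in Hras.E1A +TSA, 10 in Hras.Myc, 9 in Hras.Myc +PD and 11 in Hras.Myc +TSA. The drop with PD was thus larger in Hras.E1A, where 6 loci were closed and none opened, than in Hras.Myc, where 3 were closed and 2 opened, a difference that was not tested. With lists of equal length, PD closed 3 and opened 2 Foxk1 loci of Hras.E1A, and closed 2 and opened 4 of Hras.Myc, so the direction in Hras.Myc turned. For 6 of the 16 loci the nearest start site was that of another gene. At Foxk2 (chr11:121259990-121309896, plus strand), 5 of 6 loci were open in Hdac7SA.Mef2d and in Hras.E1A, 1 in Hras.E1A +PD, 4 in Hras.E1A +TSA, 4 in Hras.Myc, 1 in Hras.Myc +PD and 2 in Hras.Myc +TSA. The promoter was the only Foxk2 locus open with PD, in both lines. All 5 intronic loci were lost in at least 1 line, and 3 of them held an AP-1 match, including the intron 4 sequence shown above. With lists of equal length, PD closed 1 Foxk2 locus of Hras.E1A and 3 of Hras.Myc, and opened none.

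The Foxp factors are repressors that pair with one another through a leucine zipper, and Foxp2 is known for its part in the circuits of speech and vocal learning. Foxp2 (chr6:14901349-15441977, plus strand) showed the opposite course to Foxo3. Of its 21 loci, 16 were open in Hdac7SA.Mef2d, 3 in Hras.E1A, 11 in Hras.E1A +PD, 8 in Hras.E1A +TSA, 3 in Hras.Myc, 10 in Hras.Myc +PD and 3 in Hras.Myc +TSA. PD opened 8 loci of Hras.E1A and 7 of Hras.Myc and closed none, and the same numbers were found with lists of equal length. The 5 loci opened in both lines all lay in introns 4 and 5, of which 3 were also open in Hdac7SA.Mef2d, 2 held a TEAD match and none held an AP-1 match. A main promoter locus of Foxp2 was open in all 7 lists.

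Foxp1 (chr6:98925338-99522721, minus strand), which acts in B cells, neurons and heart, lost and gained loci side by side. Of its 64 loci, 55 were open in Hdac7SA.Mef2d, 29 in Hras.E1A, 26 in Hras.E1A +PD, 35 in Hras.E1A +TSA, 26 in Hras.Myc, 30 in Hras.Myc +PD and 26 in Hras.Myc +TSA. With PD, 10 were closed and 7 opened in Hras.E1A, and 8 were closed and 12 opened in Hras.Myc. In both lines together, 2 loci were closed and 6 opened, so most of its changes were seen in 1 line. With lists of equal length, PD closed 6 and opened 13 Foxp1 loci of Hras.E1A, and closed 6 and opened 16 of Hras.Myc, so the direction in Hras.E1A turned. At Foxp4, 4 of 14 loci were open in all 7 lists and 7 changed with PD in at least 1 Hras line. There were 10 open in Hdac7SA.Mef2d, 10 in Hras.E1A, 9 in Hras.E1A +PD, 9 in Hras.E1A +TSA, 8 in Hras.Myc, 7 in Hras.Myc +PD and 9 in Hras.Myc +TSA. At Foxp3 at most 1 locus was closed with PD in either line and none was opened.

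Among the Foxn genes, which include the checkpoint factor Foxn3 and the thymic factor Foxn1, change was also concentrated in the longest. At Foxn3 (chr12:99190078-99563582, minus strand), 35 of 41 loci were open in Hdac7SA.Mef2d, 17 in Hras.E1A, 19 in Hras.E1A +PD, 18 in Hras.E1A +TSA, 13 in Hras.Myc, 17 in Hras.Myc +PD and 13 in Hras.Myc +TSA. With PD, 7 were closed and 9 opened in Hras.E1A, and 3 were closed and 7 opened in Hras.Myc, with 5 opened in both lines. The Foxn1 neighbourhood was open almost throughout, with 7 of 10 loci open in all 7 lists. Foxn2 had 1 locus closed and 2 opened in Hras.E1A, and 2 closed and none opened in Hras.Myc, while Foxn4 had 1 of each in Hras.E1A and 1 opened in Hras.Myc.

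**Figure D4:**
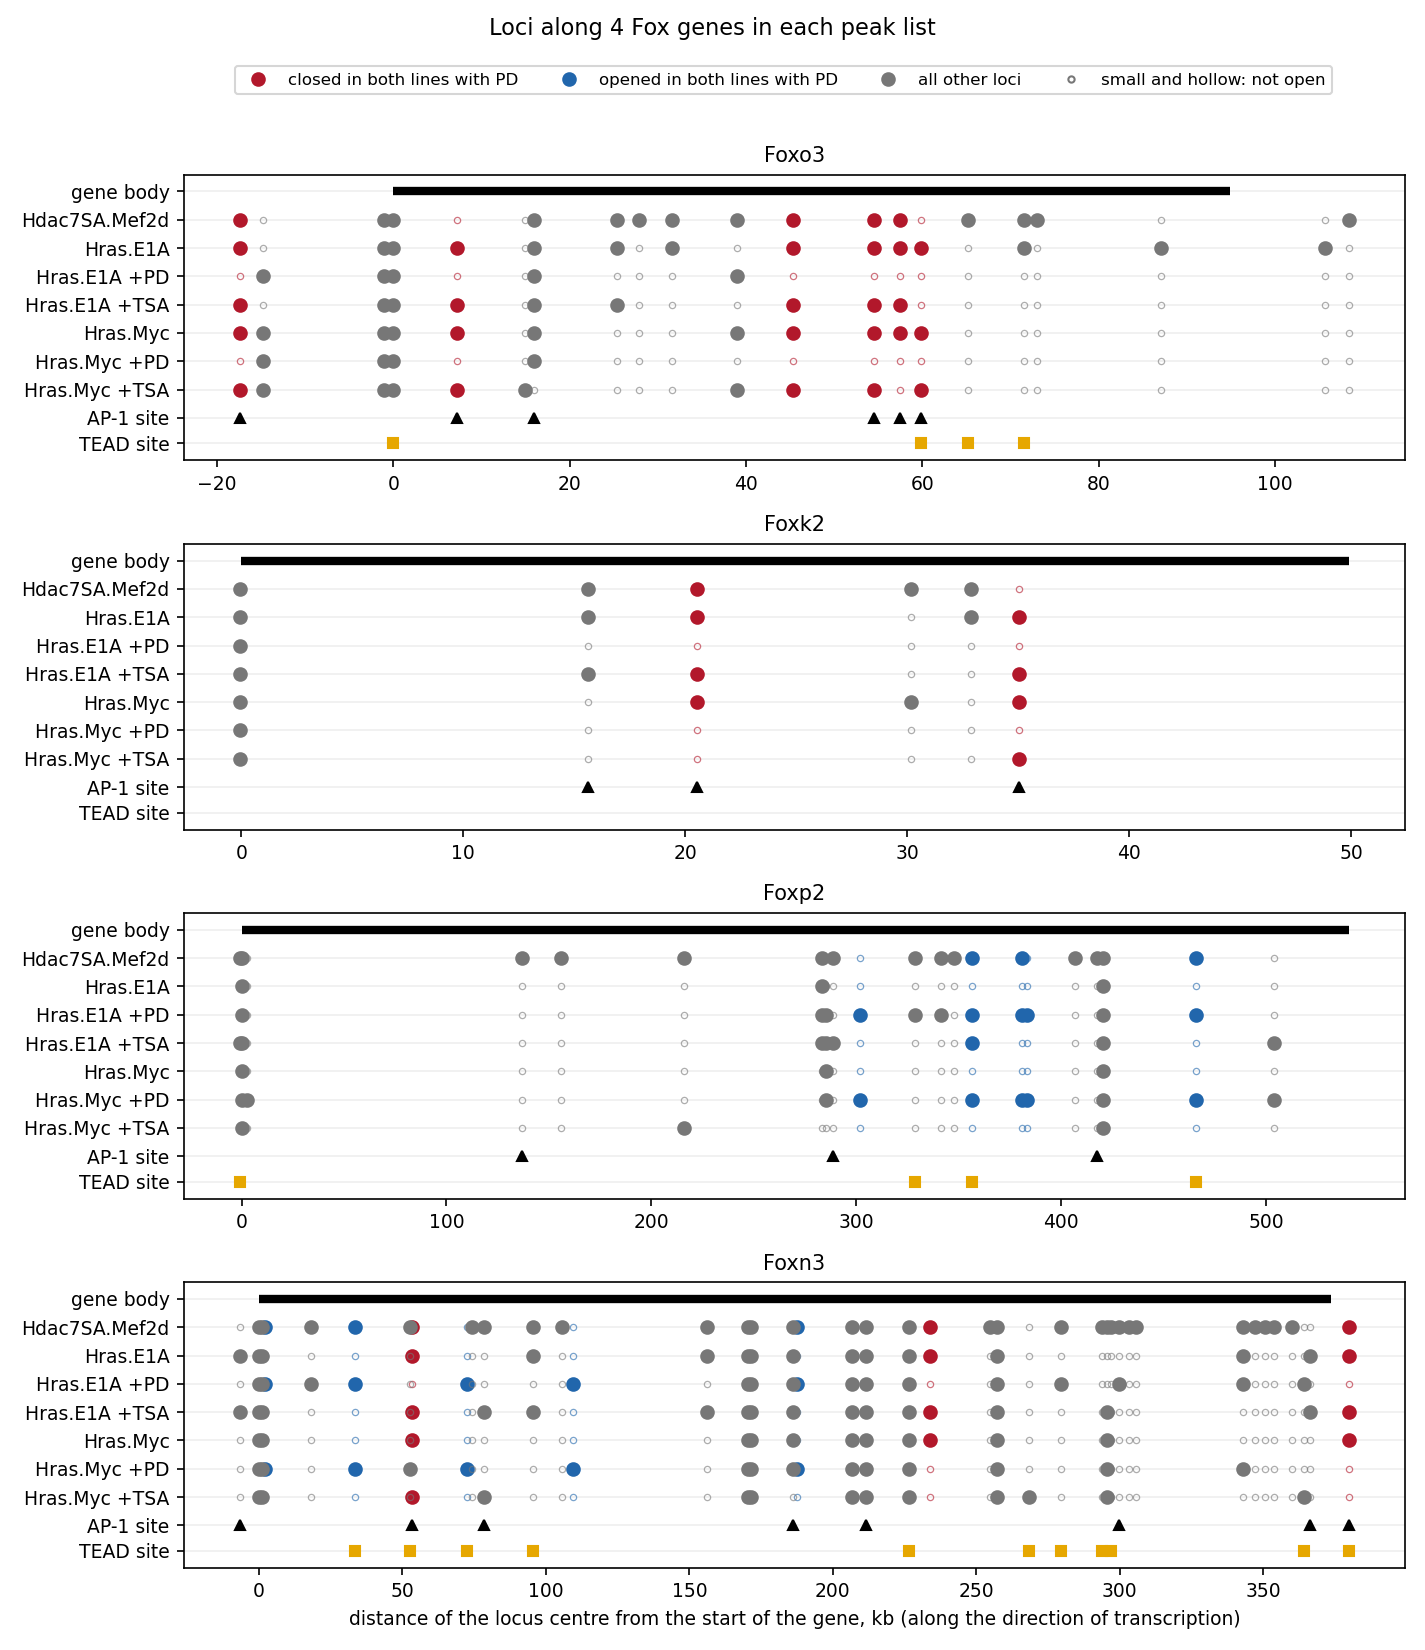
Loci along Foxo3, Foxk2, Foxp2 and Foxn3, plotted by the distance in kb of the locus centre from the start of the gene, with a row for each peak list (filled circles open, small hollow circles not open) and rows for AP-1 and TEAD matches. The 6 red loci of Foxo3, closed with PD in both lines, carried AP-1 matches at 5, and the 5 blue loci of Foxp2, opened in both lines, carried TEAD matches at 2 and AP-1 at none.

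The Foxj genes include Foxj1, the master regulator of motile cilia. Over the subfamily, 5 of 17 loci open in Hras.E1A and 4 of 13 open in Hras.Myc were closed with PD, no larger a share than the background. Foxj3 (chr4:119537004-119629119, plus strand) had 11 of 15 loci open in Hdac7SA.Mef2d, 8 in Hras.E1A, 5 in Hras.E1A +PD, 7 in Hras.E1A +TSA, 4 in Hras.Myc, 2 in Hras.Myc +PD and 6 in Hras.Myc +TSA. PD closed 4 and opened 1 of its loci in Hras.E1A, and closed 3 and opened 1 in Hras.Myc. With lists of equal length, PD closed 1 and opened 1 Foxj3 locus of Hras.E1A, and closed 3 and opened 1 of Hras.Myc. The excess of closed loci was then absent in Hras.E1A. Foxj2 lost 1 locus in each line. Foxj1 gained 1 and 2 loci and lost none.

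The subfamilies of mesoderm and mesenchyme (Foxc, Foxd, Foxf, Foxl, Foxq and Foxs) had fewer loci. The 18 Foxc loci had 1 closed and 3 opened with PD in Hras.E1A, and 3 closed and none opened in Hras.Myc. The 16 Foxd loci had 2 closed and 3 opened in Hras.E1A, and 3 closed and none opened in Hras.Myc. In each of these subfamilies the surplus of opened loci in Hras.E1A faced a surplus of closed loci in Hras.Myc. At Foxf, whose members act in visceral mesenchyme, PD closed 4 of 17 loci and opened 1 for Hras.E1A, and closed 3 and opened 1 for Hras.Myc. At Foxl, 3 of 16 loci were closed and none opened in each line. Foxq1 and Foxs1 each lost 1 locus, the same in both lines. When the lists were of equal length, Foxf1, Foxl2 and Foxq1 instead had more loci opened than closed in each line, and Foxf2 still had more closed.

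The remaining subfamilies are known mainly from endoderm, ectoderm and germ cells. At Foxa, PD closed 3 of 14 loci and opened 2 for Hras.E1A, and closed 3 and opened none for Hras.Myc. At Foxe, 5 of 13 were closed and none opened in Hras.E1A, and 4 were closed and 3 opened in Hras.Myc, with 4 closed in both. Foxb was the only subfamily outside Foxp and Foxn with more loci opened than closed in each line, at 2 against 1 and 3 against 0 of 6 loci. PD closed 1 of 4 Foxh1 loci and 2 of 6 Foxi loci in Hras.E1A, and none and 1 in Hras.Myc. Foxm1, a driver of mitotic genes, had 1 of 8 loci closed in Hras.E1A, 3 closed in Hras.Myc and none opened. The 6 Foxr loci had 1 closed and 2 opened in Hras.E1A, and 2 closed and 1 opened in Hras.Myc. When the lists were of equal length, Foxa3, Foxe1, Foxh1 and both Foxb genes had more loci opened than closed in each line. No gene of these subfamilies then had more closed in each.

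HDAC inhibition changed fewer Fox loci than MEK inhibition did. In Hras.E1A, TSA closed 27 of 246 (10.98%, interval 7.36 to 15.6, background 14.6%) and opened 28 of 247 (11.3%, interval 7.67 to 16.0, background 13.0%). In Hras.Myc it closed 32 of 208 (15.4%, interval 10.8 to 21.02, background 15.7%) and opened 45 of 221 (20.4%, interval 15.3 to 26.3, background 18.3%). All 4 shares had the background inside their intervals, and each TSA list came from 1 library. Few changes were shared by the lines, at Fox genes and at all genes. TSA closed 2 of 189 Fox loci in both lines (1.06%, interval 0.128 to 3.77, background 2.52%). It opened 5 of 182 in both (2.75%, interval 0.898 to 6.29, background 3.06%).

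By gene, the TSA changes were small. In Hras.E1A, TSA closed 5 loci at Foxo3, and it opened 8 at Foxp1 and 5 at Foxp2. In Hras.Myc, it closed 6 loci at Foxp1 and 3 at Foxn3. Foxf1 gained 3 loci in Hras.Myc and had 8 of 9 open with TSA against 5 without. Foxc2 gained 2 loci in each line, and Foxl1, which shares most of its loci with Foxc2, did too.

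Most loci that closed with PD kept a peak with TSA. Of the 79 closed with PD in Hras.E1A, 66 were open with TSA (83.5%, interval 73.5 to 90.9), against 76.1% over all genes. In Hras.Myc it was 46 of 65 (70.8%, interval 58.2 to 81.4), against 74.1%. Of all open Fox loci TSA closed only 10.98% in Hras.E1A and 15.4% in Hras.Myc. Keeping a peak with TSA was therefore not particular to the loci that PD closed. Of the 36 loci closed with PD in both lines, 35 were open in Hras.E1A +TSA and 26 in Hras.Myc +TSA, and no share over all genes was computed for this class.

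AP-1 matches were common in the loci that closed and rare in those that opened, at Fox genes and across all genes. Of 32 distal Fox loci closed with PD in both lines, 21 held an AP-1 match (65.6%, interval 46.8 to 81.4), against 66.3% of such loci at all genes. Of 20 distal loci opened in both lines none held an AP-1 match, which allows a share of up to 16.8%, against 4.87%, and 6 held a TEAD match (30.0%, against 31.0%). Among all 321 distal Fox loci, 77 held an AP-1 match (24.0%, against 30.8%) and 51 a TEAD match (15.9%, against 19.4%). A match describes the letters in the window and not a bound factor.

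Matches to the forkhead core itself were few. They were found in 17 of the 321 distal Fox loci (5.30%, interval 3.11 to 8.34), against 3.21% of distal loci at all genes. Of the 73 distal loci closed with PD in Hras.E1A, 7 held a match (9.59%, interval 3.94 to 18.8), against 3.10%. In Hras.Myc it was 2 of 59 (3.39%), against 2.90%. A Foxo3 intron 2 locus with such a match is among the sequences shown above.

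**Figure D5:**
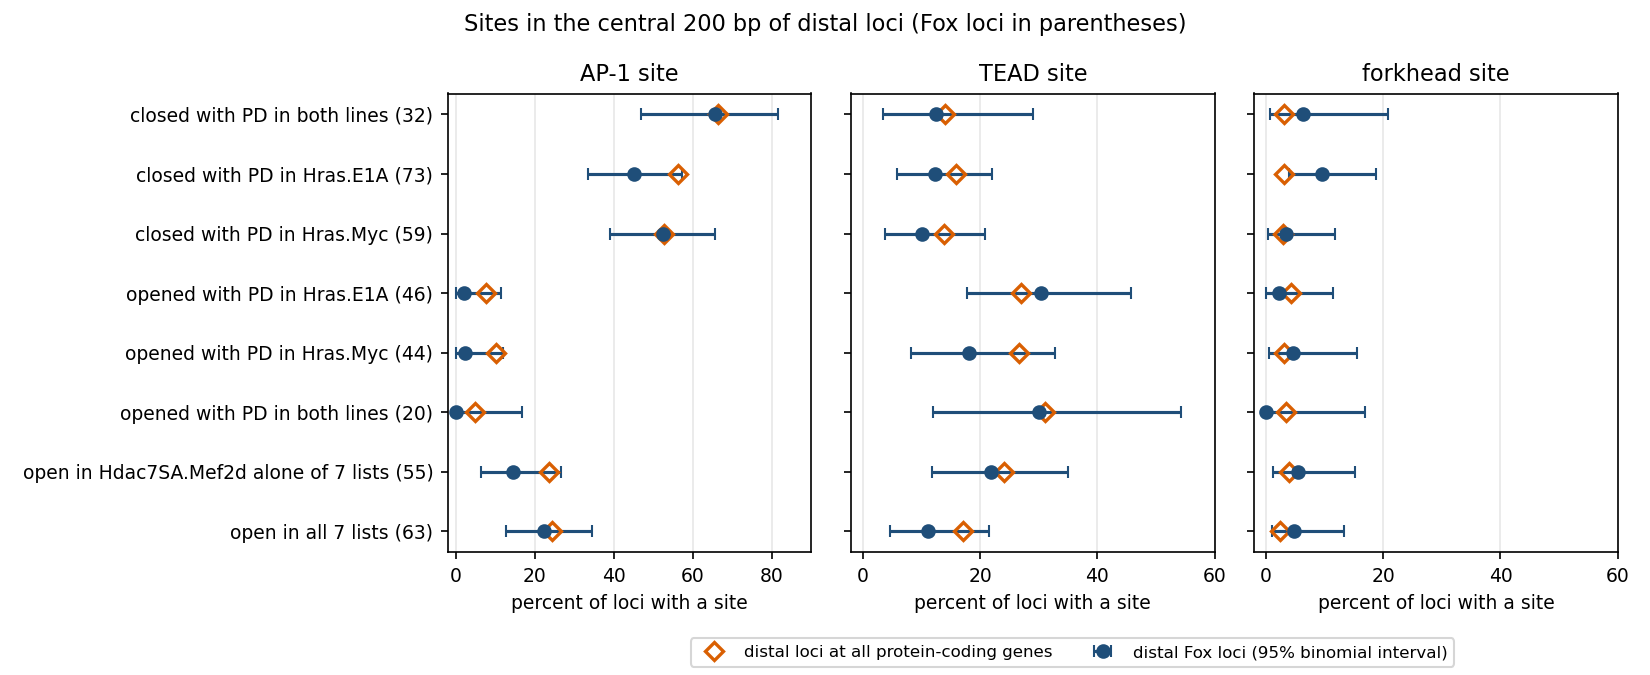
Percent of distal loci with an AP-1, TEAD or forkhead match in their central 200 bp, for 8 classes of Fox loci (blue, with 95% exact binomial intervals, number of loci in parentheses) and for the same classes over all protein-coding genes (orange diamonds). AP-1 matches were at 65.6% of Fox loci closed with PD in both lines and at none of those opened in both.

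Genes that act with the Fox factors were described in the same way from 5 lists. At 15 genes of the PI3K, AKT and FOXO axis, 44 of 136 loci were closed with PD in Hras.E1A (32.4%) and 47 of 114 in Hras.Myc (41.2%), both with the background inside the interval. With TSA in Hras.Myc, 28 of 114 were closed (24.6%, interval 17.0 to 33.5), above the background of 15.7%. Of the 10 shares closed with TSA over the 5 lists, this was the only one whose interval left out the background, and TSA closed 18 of 136 loci of the same genes in Hras.E1A (13.2%, background 14.6%). At 15 FOXO target genes, PD closed 17 of 64 loci of Hras.E1A (26.6%) and 19 of 60 of Hras.Myc (31.7%), and TSA closed 4 of 60 in Hras.Myc (6.67%, interval 1.85 to 16.2).

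At 10 FOXM1 target genes of mitosis, PD closed 7 of 48 loci in Hras.E1A (14.6%, interval 6.07 to 27.8), below the background of 35.5%. In Hras.Myc it closed 12 of 47 (25.5%, interval 13.9 to 40.3), with the background of 35.7% inside the interval. Opened loci at these genes were also few in Hras.Myc, at 1 of 36 with PD (2.78%, interval 0.0703 to 14.5, background 21.7%) and 2 of 44 with TSA (4.55%, interval 0.555 to 15.5, background 18.3%). In Hras.E1A the background lay inside both intervals. There, 4 of 45 were opened with PD (8.89%, interval 2.48 to 21.2, background 14.3%) and 4 of 49 with TSA (8.16%, interval 2.27 to 19.6, background 13.0%). At all genes, promoter loci changed less often than distal loci. PD closed 6.98% against 44.6% in Hras.E1A, and 4.49% against 29.7% were opened in Hras.Myc. The loci of the 5 lists were not split into promoter and distal, so the part of promoters in these low shares was not tested. At 11 Hedgehog genes, which act upstream of several Fox genes, PD closed 29 of 109 loci in Hras.E1A (26.6%) and 20 of 94 in Hras.Myc (21.3%, interval 13.5 to 30.9), the latter below the background of 35.7%. At 10 corepressor and partner genes it closed 27 of 75 (36.0%) and 21 of 65 (32.3%).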

How the data were processed

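ATAC-seq was done on 12 libraries of immortalized MEFs, grouped by their titles into 7 groups. The authors aligned reads to mm10 with Bowtie2 2.4.5 and called peaks with MACS2 2.2.7.1, per the submitters' notes, then redefined peaks across samples so that weak peaks could be recovered. They deposited 1 peak list for each group, and the score in each deposited list has no stated scale, so it only ranked peaks within a list. Because peaks were shared across samples, the lists are not independent. Read depth is unknown, and intervals cover counting error only.

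Peaks of the 19 autosomes and both sex chromosomes that shared at least 1 bp were merged (Python 3.11.15, numpy 2.4.6, pandas 2.3.3, scipy 1.17.1) and assigned to GENCODE M21 basic genes with 20 kb on either side. The merging and state calls were tested on simulated data. Members and lists were chosen with earlier results of these data known. Values in every list were given for the members with most loci, most changes by treatment or promoter loci that differed, and Foxk2 was added after its values were seen. Motifs were searched in the central 200 bp. The values of 1 member and 1 sequence are not reported here. Shares are beside those of loci at all protein-coding genes, with no test. Alternatives changed the peaks kept, list length, overlap, window and promoters.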

Additional observations from a re-analysis of the deposited data

Results flagged for a closer look

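At 12 gene and treatment pairs the count of loci opened minus loci closed had opposite signs in the Hras lines. With 1 list per group the difference was not tested, and most counts are 1 or 2 loci. With PD, the difference was 2 in Hras.E1A and -1 in Hras.Myc at Foxc1, 1 and -2 at Foxd3, 1 and -2 at Foxn2, -2 and 1 at Foxo4, -3 and 4 at Foxp1, and 1 and -1 at Foxr2. With TSA, it was -1 in Hras.E1A and 2 in Hras.Myc at Foxb1, -1 and 1 at Foxh1, -1 and 2 at Foxj3, -1 and 1 at Foxk1, -1 and 2 at Foxo6, and -1 and 1 at Foxp4. Foxp1, with 64 loci, had the widest gap, but with lists of equal length it had more loci opened than closed in both lines. The sign with PD turned in 1 of 9 alternatives at Foxp1 and Foxn2 in Hras.E1A and at Foxo4 in Hras.Myc.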

How the results depend on the processing

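No paired analysis was possible because each group had 1 pooled list, and for the same reason no replicate could be left out. Of 121 values of the 11 shares under 11 alternatives, 100 stayed within the interval of the value reported. The others follow, each with the background under the same alternative in parentheses. Without the 25% of each list with the lowest scores, the shares closed with PD were 39.3% (39.1%) in Hras.E1A and 40.1% (40.1%) in Hras.Myc, those closed with TSA 21.5% (18.7%) and 25.9% (21.1%), that opened with TSA in Hras.E1A 17.4% (17.3%), and that open in Hras.Myc alone of the untreated lines 10.2% (9.71%). With lists of equal length, closed with PD in Hras.E1A was 25.2% (31.8%), opened with PD 44.2% (34.6%) and 35.6% (32.6%), closed with TSA 19.05% (18.9%) and 25.9% (21.6%), opened with TSA in Hras.E1A 18.5% (19.2%), and open in Hras.Myc alone 24.7% (20.9%). Without loci within 1000 bp of a coding start site, closed with PD was 40.3% (44.6%) and 40.7% (46.1%), opened with PD 29.9% (19.2%) and 33.8% (29.7%), opened with TSA in Hras.Myc 26.3% (22.9%), and open in Hdac7SA.Mef2d and neither Hras line 40.8% (43.02%). In gene bodies alone, opened with PD in Hras.Myc was 32.1% (21.6%) and open in Hdac7SA.Mef2d and neither Hras line 42.1% (36.8%). Without Foxp1, Foxp2 and Foxn3, an alternative chosen after seeing the data that left the background whole, opened with PD was 16.1% (14.3%) and 16.4% (21.7%), opened with TSA in Hras.E1A 6.99% (13.0%), and open in Hdac7SA.Mef2d and neither Hras line 23.3% (36.3%). The share opened with PD in Hras.E1A was above the background in 11 of 11 alternatives, with its interval above it in 9. Of 1512 counts at 21 named genes, 1218 stayed within 1.5 times. The excess of closed loci at Foxo3 and of opened loci at Foxp2 with PD kept its sign in both lines in 9 of 9 alternatives.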
